A study of Drosophila melanogaster with 12 samples.

Results

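Adding the transcription factor pair dE2F1/dDP to Drosophila eye discs that already expressed the microRNA miR-11 was followed on 6 arrays, 3 of dE2F1/dDP + miR-11 discs and 3 of miR-11 discs, out of 12 arrays in the series. The dE2F1/dDP + miR-11 larvae were GMR-Gal4/UAS-miR-11 with UAS-dE2F1,UAS-dDP/+, and the miR-11 larvae were GMR-Gal4/UAS-miR-11 alone. The other 6 arrays, used here for the same addition without miR-11, held 3 replicates of GMR-Gal4/+ with UAS-dE2F1,UAS-dDP/+ (dE2F1/dDP discs) and 3 of GMR-Gal4/+ (control discs). Per the labels, replicates are biological, flies were kept at 25 °C, the tissue was the larval eye disc of the third instar, and 100 ng of total RNA per sample went into biotinylated cRNA for Affymetrix arrays. Every genotype carried GMR-Gal4, a driver that induces expression behind the morphogenetic furrow per the series' design and is known to be active in some other larval tissues as well. Cells ahead of the furrow are in the same RNA, and which of any attached tissue expressed the transgenes cannot be read from the labels. In such bulk RNA, fewer cells of a type and less RNA per cell cannot be told apart. The labels do not say how many discs were pooled or whether the antennal disc was kept.

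The eye disc is the larval epithelium that gives rise to the adult eye. A wave called the morphogenetic furrow crosses it. Cells ahead of the furrow divide, and most cells behind it leave the cycle, some after a last synchronous S phase. E2F and DP proteins bind DNA as a pair, and the activator E2F of flies, dE2F1, drives genes for S phase and mitosis while Rbf, the fly retinoblastoma protein, restrains it. Excess dE2F1 in the eye is known to cause both extra S phases and cell death. miR-11 is encoded within an intron of the gene of dE2F1 and is known in Drosophila for limiting E2F-dependent cell death through rpr and hid, which makes its presence a question for the response to dE2F1/dDP.

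The arrays of miR-11 discs were the least alike of the genotypes. The first principal component of all 12 arrays held 63.1% of the variance. Its scores were -30.1, 1.7 and -19.9 in dE2F1/dDP + miR-11 discs, against -34, 20.6 and 83.3 in miR-11 discs. The third miR-11 array thus lay farthest from zero of all arrays, and the groups overlapped (exact permutation p = 0.4, two-sided, over 20 splits, with 0.1 the smallest p that 3 against 3 allows). Act5C 3′ probe sets exceeded 5′ ones by 2.2, 1.69 and 2.33 log2 units in dE2F1/dDP + miR-11 discs and by 1.85, 1.87 and 2.8 in miR-11 discs (exact permutation p = 0.8, two-sided), so the same miR-11 array also had the largest gap of the 6. The bio spike-in averaged log2 10.17, 9.51 and 9.71 in dE2F1/dDP + miR-11 discs, against 9.54, 10.02 and 10.8 in miR-11 discs (exact permutation p = 0.6, two-sided). Outside these 6 arrays, the third dE2F1/dDP array had an Act5C gap of 2.82 and a spike-in mean of 10.33. The part of RNA quality or hybridisation in the results was not tested.

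Few probe sets passed the test. Of 18769 probe sets, 10 differed between dE2F1/dDP + miR-11 and miR-11 discs (limma with Benjamini-Hochberg adjusted p under 0.05), which is 0.0533% of those tested, and 8 did without the third miR-11 array. 3 of the 10 were higher (0.016%) and 7 lower (0.0373%), and 546 probe sets had an unadjusted p under 0.05 (2.91%). The same addition without miR-11, dE2F1/dDP against control discs, gave 12 calls by the same limma test (0.0639%), 6 higher (0.032%) and 6 lower (0.032%). The files pair no probe set with a gene, so probe sets are given by identifier and only the smallest p-values in each direction are named.

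The largest rise was in 1629242_x_at. It measured log2 10.39, 9.91 and 10.13 in dE2F1/dDP + miR-11 discs, against 5.87, 5.91 and 6.51 in miR-11 discs, a change of 4.05 ± 0.29 (SE, limma adjusted p = 0.000571), or 4.25 without the third miR-11 array (limma adjusted p = 0.000876). The other genotypes sat with dE2F1/dDP + miR-11, at 9.92, 9.88 and 10.87 in dE2F1/dDP discs and 10.73, 10.11 and 10.39 in control discs. Only the miR-11 arrays were low for this probe set, and no array of another genotype came near them.

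A second rise had the same shape. Probe set 1638428_at measured log2 8.52, 8.21 and 8.41 in dE2F1/dDP + miR-11 discs, against 5.03, 5.24 and 5.31 in miR-11 discs (change 3.19 ± 0.27 SE, limma adjusted p = 0.0017, and 3.24 without the third miR-11 array, limma adjusted p = 0.00693). dE2F1/dDP discs had 7.98, 8.09 and 9.07 and control discs 9.01, 8.44 and 8.56, so here too the miR-11 arrays stood alone.

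The fall with the smallest p mirrored these. Probe set 1633386_s_at was at log2 3.91, 4.14 and 4.23 in dE2F1/dDP + miR-11 discs, against 6.65, 6.35 and 6.25 in miR-11 discs (change -2.33 ± 0.16 SE, limma adjusted p = 0.000571, and -2.41 without the third miR-11 array, limma adjusted p = 0.000876). The remaining genotypes were low, with 3.77, 4.01 and 4.17 in dE2F1/dDP discs and 4.2, 3.91 and 3.84 in control discs.

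Probe sets 1638279_at and 1624393_at were called in the same direction with and without miR-11. Probe set 1638279_at measured log2 6.23, 6.98 and 5.98 in dE2F1/dDP + miR-11 discs, against 8.76, 9.37 and 10.2 in miR-11 discs (change -3.05 ± 0.37 SE, limma adjusted p = 0.0353, and -2.67 without the third miR-11 array, limma adjusted p = 0.0474). Without miR-11 it measured 6.45, 6.22 and 6.82 in dE2F1/dDP discs and 9.05, 9.71 and 9.08 in control discs (change -2.78, limma adjusted p = 0.0369). Its call with miR-11 was lost in 12 of 18 alternative settings, among them the 6 arrays alone (limma adjusted p = 0.587) and quantile normalization (limma adjusted p = 0.101), and its adjusted p ranged from 0.00348 to 0.587 over them. The call without miR-11 was also lost in 12 of 18.

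Probe set 1624393_at rose in both. It was at log2 8.49, 8.39 and 8.43 in dE2F1/dDP + miR-11 discs, against 6.92, 7.12 and 7.1 in miR-11 discs (change 1.39 ± 0.16 SE, limma adjusted p = 0.0268). dE2F1/dDP discs had 8.54, 7.98 and 8.11 and control discs 6.15, 5.71 and 5.72 (change 2.35, limma adjusted p = 0.000156). The call with miR-11 was lost in 11 of 18 alternative settings, with a limma adjusted p between 0.00511 and 0.215, among them quantile normalization (0.205), the 6 arrays alone (0.0562) and the fit without the third miR-11 array (change 1.42, limma adjusted p = 0.0581). The miR-11 arrays lay between the control arrays and those of both dE2F1/dDP genotypes.

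**Figure D1:**
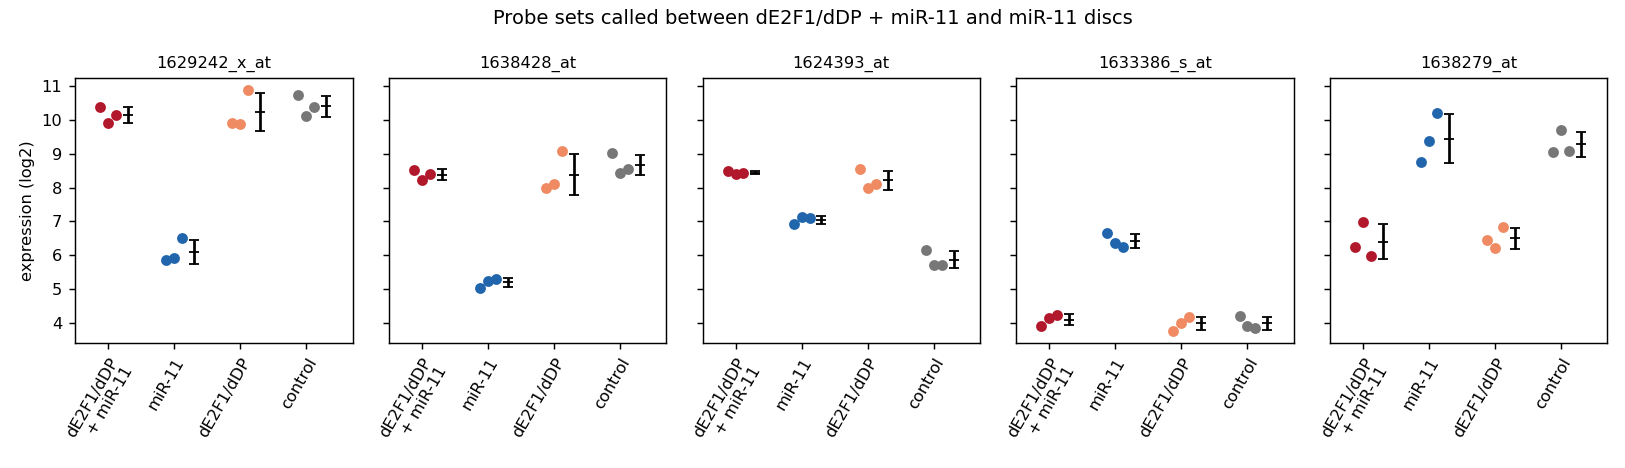
Log2 expression (vertical axis) of 5 probe sets called between dE2F1/dDP + miR-11 and miR-11 discs, with each of the 12 arrays as a point by genotype and the mean ± SD (n = 3) beside the points. In 1629242_x_at, 1638428_at and 1633386_s_at the miR-11 arrays stand apart from all 9 others, while 1624393_at and 1638279_at are shifted in both genotypes with dE2F1/dDP.

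The 10 called probe sets ranged from 1.39 to 4.05 in absolute log2 change, and their falls lay between -1.58 and -3.92. The groups did not overlap in any of the 10, a property shared by 1236 of all probe sets (6.59%). In 7 of the 10, all 3 miR-11 arrays lay outside the range of the other 9 arrays. The mean of dE2F1/dDP + miR-11 discs was within 0.5 of the control mean in 7. How many of all probe sets have either property was not counted, so both counts describe the 10 calls and nothing more. 2 of the 10, those shown above, were also called in the same direction between dE2F1/dDP and control discs. The limma test of the difference between both responses called 9 probe sets in all (0.048%), 6 more positive with miR-11 (0.032%) and 3 more negative (0.016%), and 4 of the 10 were among them.

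Beyond the calls, 113 probe sets stood at least log2 1 higher in dE2F1/dDP + miR-11 discs (0.602%) and 166 at least log2 1 lower (0.884%). The groups did not overlap in 30 of the 113 and in 73 of the 166, against 6.59% of all probe sets. Choosing probe sets by the size of their change itself favours groups that do not overlap, so these counts are descriptive. Most of this upper tail fell short of log2 1 without the third miR-11 array, and counts without the first or second were not made. Without the third miR-11 array, 13 probe sets were past log2 1 higher and 138 lower, and these held 13 of the 113 (11.5%) and 113 of the 166 (68.1%). Quantile normalization gave 70 higher and 199 lower, and the median change over all probe sets was -0.019 as deposited and -0.002 after it. The median SE of a change was 0.169 on the log2 scale.

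Changes of every size moved with the miR-11 arrays, and their medians were smaller in size without the third array and larger without the first. Probe sets 0.3 to 0.6 higher with all arrays, 1911 in number, had a median change of 0.43, which was 0.11 without the third miR-11 array, 0.46 without the second and 0.74 without the first. The 884 probe sets 0.6 to 1 higher had a median of 0.71, against 0.22 without the third array, 0.76 without the second and 1.19 without the first. Among the 113 past log2 1 the median was 1.13 on all arrays, 0.54 without the third, 1.15 without the second and 1.78 without the first. The 166 past log2 1 lower kept more of their change without the third array, with a median of -1.5 on all arrays and -1.27 without it. Their median was -1.34 without the second array and -1.88 without the first.

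**Figure D2:**
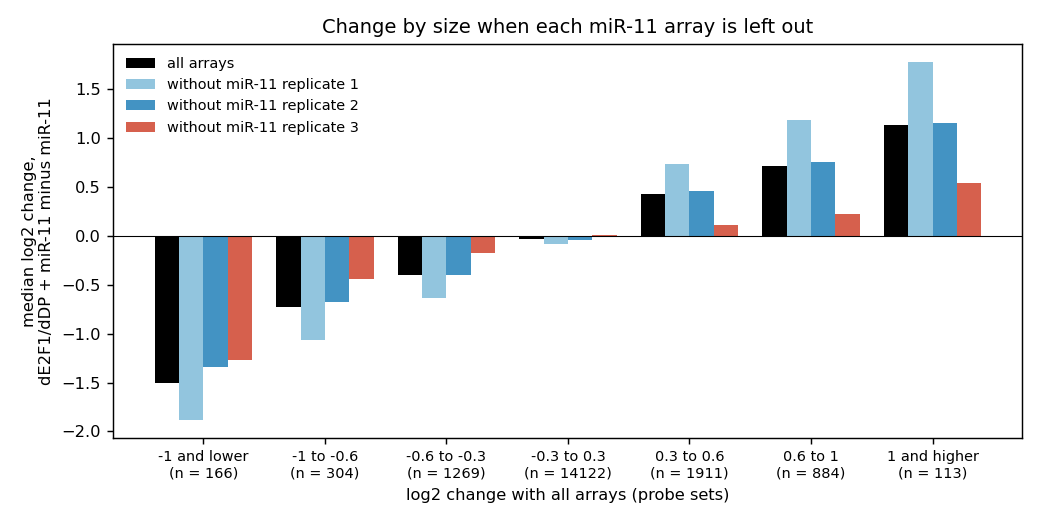
Median log2 change, dE2F1/dDP + miR-11 minus miR-11 (vertical axis), of probe sets binned by their change on all arrays (horizontal axis, number of probe sets in parentheses), with all arrays and with each miR-11 array left out. For the 113 probe sets 1 and higher the median is 1.13 with all arrays, 0.54 without replicate 3 and 1.78 without replicate 1. For the 166 at -1 and lower it is -1.5, -1.27 and -1.88.

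Named genes come from the authors' deposited table, which gives 13281 genes as the average log2 fold change of each transgenic genotype over the control, with no value per array. The difference between dE2F1/dDP + miR-11 and miR-11 discs was formed for each gene from those fold changes, so the control cancels. With no value per array and no names for the probe sets, no test, SE or value without an array is given for a gene. The table and the arrays describe the same samples, so a probe set given above and a gene given below may be the same transcript and are not separate evidence. The differences below are therefore descriptions on the log2 scale. Of all genes 6253 had a positive difference (47.1%), the median was -0.013, and the range from the 5th to the 95th percentile was -0.49 to 0.65. Differences of at least log2 1 were found in 96 genes upward (0.723%) and 154 downward (1.16%).

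The transgenes serve as a check of the labels. For Dp, which encodes dDP, the difference was 3.02 (8.11-fold), the largest positive one of all genes, and in the authors' deposited table it was at 2.73 in dE2F1/dDP + miR-11 discs, -0.29 in miR-11 discs and 2.85 in dE2F1/dDP discs, all over the control. The eye pigment transporter gene w, whose mini copy commonly marks fly transgenes, differed by 1.39 and stood in the authors' deposited table at 2.58 in dE2F1/dDP + miR-11 discs, 1.19 in miR-11 discs and 2.35 in dE2F1/dDP discs. E2f, the gene of dE2F1, differed by only 0.29, and in the authors' deposited table it was at 0.33 in dE2F1/dDP + miR-11 discs, 0.04 in miR-11 discs and 0.34 in dE2F1/dDP discs. Whether its probes lie within the transgene's cDNA was not tested. The probe set test gave no matching check of Dp. The called rises with miR-11 were 4.05, 3.19 and 1.39, and the same probe sets changed by -0.19, -0.29 and 2.35 without it. None of them pairs values near 3.02 and 2.85. The rises of 4.05 and 3.19 also exceed every gene difference, so no gene row has their size.

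The same addition without miR-11 used none of the same arrays. Over probe sets, the change between dE2F1/dDP + miR-11 and miR-11 discs and the change between dE2F1/dDP and control discs had a Pearson r of 0.57 (Spearman rho 0.58, across 18769 probe sets, which are not independent replicates). Without the third miR-11 array r was 0.17 (rho 0.15), and with the first component of the deviations within genotypes as a covariate it was 0.09 (rho 0.04). The correlation was not computed without any other array, so the share of the third miR-11 array alone cannot be read from it. Other groups were spread as well. First principal component scores were -49.9, -44.7 and 34.4 in dE2F1/dDP discs and 49.8, -1.9 and -9.3 in control discs. Of the 12 probe sets called between dE2F1/dDP and control discs, 7 had the same sign with miR-11, 3 were past log2 1 and 2 were called. Over the 13281 genes of the authors' deposited table r was 0.59, a value that cannot be recomputed without an array.

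**Figure D3:**
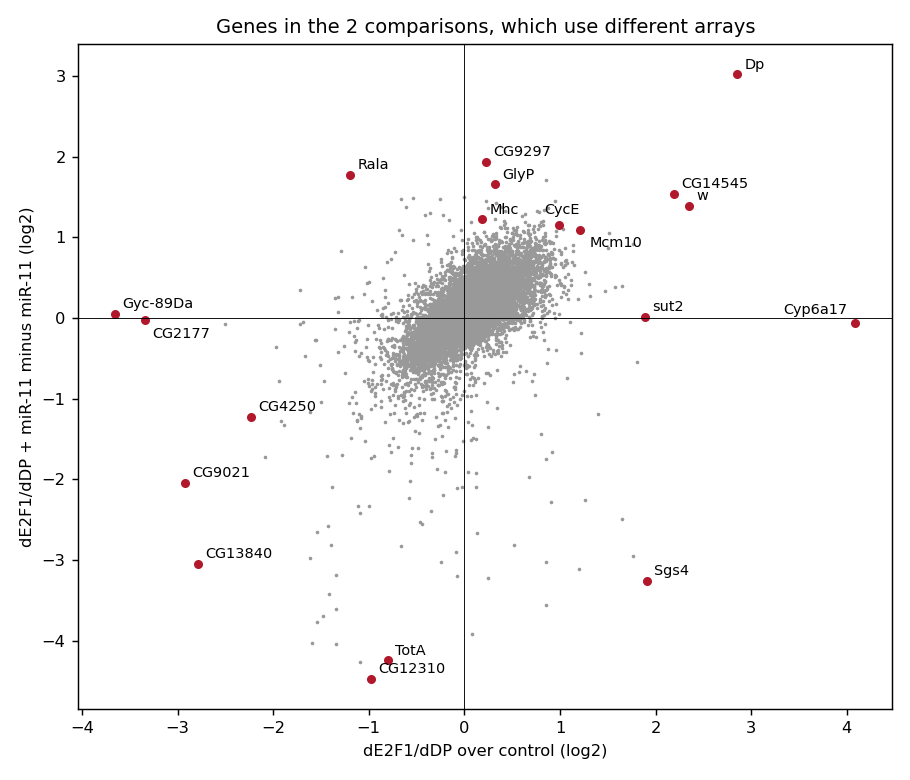
Log2 difference of each of 13281 genes between dE2F1/dDP + miR-11 and miR-11 discs (vertical axis) against its log2 fold change in dE2F1/dDP over control discs (horizontal axis), which comes from other arrays, with 19 genes of the text labelled. Dp is at 3.02 and 2.85, CG13840 is low on both axes at -3.05 and -2.78, Sgs4 is low on the vertical axis and high on the horizontal one at -3.26 and 1.91, and Cyp6a17 is high only on the horizontal axis at 4.09.

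Regulators of E2F and of the G1/S step stood mostly higher once dE2F1/dDP was added to miR-11 discs. In the list of E2F, retinoblastoma and dREAM complex genes 12 of 14 differences were positive with a median of 0.51, against 47.1% and -0.013 over all genes, and 1 gene, the transgene Dp, was past log2 1. Rbf and Rbf2, the retinoblastoma family repressors of E2F, differed by 0.91 and 0.92. Rbf was at 0.51 in dE2F1/dDP + miR-11 discs and -0.40 in miR-11 discs over the control in the authors' deposited table. E2f2, the repressor E2F of flies, differed by 0.20. In the list of G1/S regulators 14 of 18 were positive, with a median of 0.44.

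CycE, the cyclin that triggers S phase and a classic E2F target, led the G1/S regulators at 1.15 (2.22-fold). Over the control it stood in the authors' deposited table at 1.04 in dE2F1/dDP + miR-11 discs, -0.11 in miR-11 discs and 0.99 in dE2F1/dDP discs. The Cdc7 kinase gene l(1)G0148, which fires replication origins, differed by 0.90, and ago, the F-box gene that targets Cyclin E for degradation, by 0.83. stg, the fly Cdc25 phosphatase that triggers mitosis, differed by 0.58. Cks85A, a small partner of cyclin-dependent kinases, was the lowest of the list at -0.64.

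Genes that license and fire replication origins stood higher in 15 of 19, with a median of 0.50 and 2 past log2 1. Mcm10, which loads the replication machinery, differed by 1.08 and was at 1.06 in dE2F1/dDP + miR-11 discs, -0.02 in miR-11 discs and 1.21 in dE2F1/dDP discs over the control in the authors' deposited table. Orc1, a subunit of the origin recognition complex that is a known E2F target in flies, also differed by 1.08, while dup, the fly Cdt1, differed by 0.98 and the helicase subunit Mcm2 by 0.85. The rest of the list ran down to a small negative difference, and no gene in it was past log2 1 lower.

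Replication fork genes were positive in 16 of 20, with a median of 0.37. The exonuclease gene tos reached 1.18, the catalytic subunit gene DNApol-alpha180 reached 0.84, DNApol-epsilon reached 0.79 and the DNA ligase gene CG5602 reached 0.78. mus209, which encodes PCNA, the sliding clamp and a standard E2F readout, differed by 0.54. In the authors' deposited table mus209 was at 0.43 in dE2F1/dDP + miR-11 discs, -0.11 in miR-11 discs and 0.37 in dE2F1/dDP discs over the control.

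Nucleotide supply was mixed. 7 of 11 rows of that list were positive with a median of 0.38, while its median in dE2F1/dDP over control discs was -0.08. RnrL, the large subunit of ribonucleotide reductase, differed by 1.26, and was at 0.82 in dE2F1/dDP + miR-11 discs and -0.44 in miR-11 discs over the control in the authors' deposited table. The small subunit RnrS differed by 0.57. The purine synthesis gene ade2 differed by 0.54, and the 2 rows of ade3, which acts in the same pathway, by 0.63 and 0.18.

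Chromatin assembly and histone genes were positive in 15 of 17, with a median of 0.45 and none past log2 1. Caf1, a histone chaperone subunit of the assembly factor that follows the fork, differed by 0.82, the Polycomb repressive subunit Su(z)12 by 0.71 and CG34415 (now mute), a regulator of histone mRNA, by 0.65. Acf1, which encodes a nucleosome remodelling subunit, was among the largest differences of all genes at 1.70. It stood at 0.74 in dE2F1/dDP + miR-11 discs, -0.96 in miR-11 discs and 0.86 in dE2F1/dDP discs over the control in the authors' deposited table.

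Of 53 G2 and mitosis genes, 47 were positive, with a median of 0.44. The cohesin subunit SA differed by 1.14, the condensin genes CAP-D2 and glu by 1.13 and 0.99, and pav, a kinesin of cytokinesis, by 0.94. In miR-11 discs the median of these genes over the control was -0.27, against 0.23 in dE2F1/dDP + miR-11 discs, and for CAP-D2 the authors' deposited table gave 0.46 in dE2F1/dDP + miR-11 discs and -0.67 in miR-11 discs. In dE2F1/dDP over control discs the median was 0.28. DNA damage and repair genes were positive in 22 of 30 with a median of 0.23. Among them RecQ5, a helicase, differed by 1.01, Irbp, the fly Ku70 of end joining, by 1.0, the stress-responsive transcription factor CG17836 (Xrp1) by 0.85, and Hus1-like, of a checkpoint clamp, by -0.79.

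**Figure D4:**
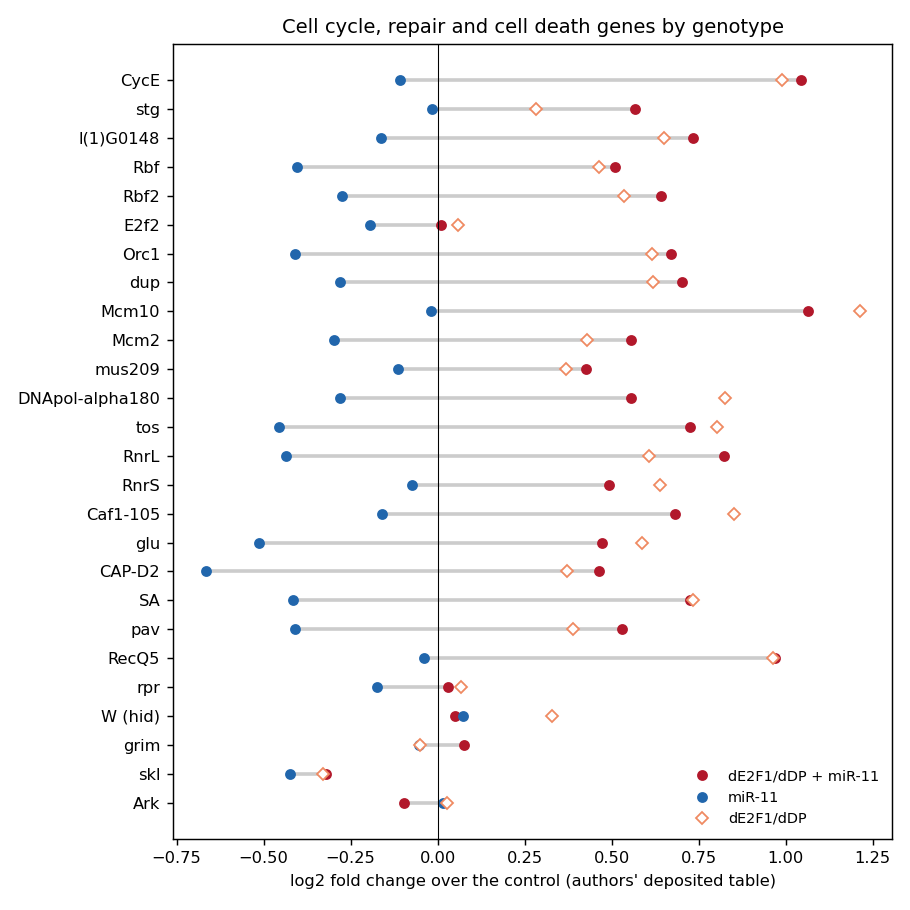
Log2 fold change over the control in the authors' deposited table (horizontal axis) of cell cycle, repair and cell death genes (rows) in dE2F1/dDP + miR-11 discs, miR-11 discs and dE2F1/dDP discs, where the grey bar joins the first and second. CycE is at 1.04 with dE2F1/dDP + miR-11 and -0.11 with miR-11, while rpr, W (hid) and Ark lie close to 0 in both.

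Both the miR-11 arrays and gene span moved with these upward differences. Probe set changes between 0.3 and 1, the range in which most of these genes lie, had lower medians without the third miR-11 array (above). Their medians were higher without the first. The share of an array in a named gene could not be computed. Span, the distance from the start to the end of a gene, was the second measure. In the decile of genes with the shortest spans the median difference was -0.12, with 1 gene past log2 1 higher and 56 past log2 1 lower. In decile 8 the median was 0.20, with 22 and 4 such genes. In dE2F1/dDP over control discs the medians of these 2 deciles were -0.11 and 0.10. The median of each span decile was then subtracted from its genes. The list medians became 0.47 for E2F and retinoblastoma genes, 0.39 for G1/S regulators, 0.50 for origin genes and 0.35 for fork genes. They became 0.39 for G2 and mitosis genes, 0.22 for nucleotide supply (0.38 before), 0.34 for chromatin assembly (0.45 before) and 0.16 for DNA damage and repair (0.23 before). The part of span in these differences was not tested. The 96 genes past log2 1 higher had a median span of 6838 bases, against 1063.5 for the 154 past log2 1 lower and 2373 for all genes with a span.

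The proapoptotic genes lay near zero, and other cell death genes ranged from -0.31 to 0.71. rpr, hid (listed as W), grim and skl encode the proteins that release caspases from inhibition, and their differences were 0.20, -0.02, 0.13 and 0.10. For rpr the authors' deposited table gave 0.03 in dE2F1/dDP + miR-11 discs, -0.17 in miR-11 discs and 0.07 in dE2F1/dDP discs over the control. For hid the authors' deposited table gave 0.05 in dE2F1/dDP + miR-11 discs, 0.07 in miR-11 discs and 0.33 in dE2F1/dDP discs. Ark, the fly Apaf-1 homolog and a known E2F target, differed by -0.11. Other cell death genes were positive in 12 of 20 with a median of 0.04, led by the caspase inhibitor Bruce at 0.71 and the engulfment receptor drpr at 0.53. Dcp-1, an effector caspase, was at 0.48.

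JNK pathway genes were positive in 17 of 19, with a median of 0.22, against 0.47 in dE2F1/dDP over control discs. puc, the JNK phosphatase whose expression reports pathway activity, differed by 0.68 and stood in the authors' deposited table at 0.68 in dE2F1/dDP + miR-11 discs, 0.00 in miR-11 discs and 0.77 in dE2F1/dDP discs. The kinase gene msn differed by 0.76. The E(spl) and Bearded families, which carry known sites for several microRNAs and answer to Notch, centred on -0.01, with 8 of 17 positive.

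Most genes of eye fate had small positive differences. All 23 rows of the eye progenitor list were positive, with a median of 0.41, and the list's median in dE2F1/dDP over control discs was 0.47. caup, dpp, h and dac, which pattern the disc and the furrow, differed by 0.73, 0.72, 0.61 and 0.59, and none of the 23 was past log2 1. Photoreceptor genes were positive in 22 of 25 with a median of 0.31, among which the EGFR pathway factors pnt and aop differed by 1.45 and 0.87, phyl by 1.0 and sina by 0.77. pnt was at 0.55 in dE2F1/dDP + miR-11 discs and -0.90 in miR-11 discs over the control in the authors' deposited table. The median was 0.30 for genes of cone and pigment cells (7 of 11 positive) and 0.27 for antennal genes (15 of 15 positive, with the antennal selector ss at 1.08). The median spans of these lists were 12953 bases for eye progenitor, 11304 for photoreceptor and 20846 for antennal genes, and subtracting the decile medians left 0.28 for eye progenitor, 0.17 for photoreceptor and 0.18 for antennal genes.

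Growth genes were close to the cell cycle lists. Hippo pathway and growth genes were positive in 24 of 28 with a median of 0.37, with Pi3K92E at 0.90, the atypical cadherin ft at 0.81 and gig, a TOR pathway inhibitor, at 0.78. MicroRNA machinery genes, of interest because the discs express a microRNA transgene, were positive in 10 of 13 rows with a median of 0.38. pasha, the partner of Drosha, differed by 0.64. The 2 rows of AGO1, the Argonaute of microRNAs, differed in opposite directions, at 0.70 and at -0.42, the lowest of the list. The exportin gene Ranbp21 reached 1.02. Ribosomal protein genes, 73 in number, had a median of -0.03 with 27 positive.

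Genes known from tissues other than the eye epithelium stood out among the negative differences. Salivary gland genes were lower in 23 of 25, with a median of -0.85, and 11 were past log2 1 lower, against 1.16% of all genes. Pig1, Sgs8, Sgs4 and ng3, which encode secreted glue or glue-like proteins of the larval salivary gland, differed by -4.03, -3.56, -3.26 and -3.19. Sgs4 was at -1.02 in dE2F1/dDP + miR-11 discs and 2.23 in miR-11 discs over the control in the authors' deposited table. In dE2F1/dDP discs the same gene was at 1.91 in the authors' deposited table, above the control, so it was not low in every dE2F1/dDP genotype. Over the whole list the median in dE2F1/dDP over control discs was -0.07.

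Fat body genes were lower in 15 of 17, with a median of -0.55 and 6 past log2 1 lower. Obp99b differed by -2.53, and the larval storage proteins Lsp1gamma and Lsp2 by -1.97 and -1.88. Lsp1gamma was at -0.10 in dE2F1/dDP + miR-11 discs, close to the control, and at 1.87 in miR-11 discs in the authors' deposited table. Antimicrobial and immune genes, many of them made in the fat body, were lower in 14 of 17 rows with a median of -0.41. Both rows of AttA, an attacin, were past log2 1 lower at -1.53 and -1.51, and Drs, the drosomycin gene, was at -1.0. Hemocyte genes, by contrast, centred on 0.08 with 12 of 20 positive.

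Genes of the ring gland list, most but not all of which act in ecdysone synthesis, were lower in 9 of 12 with a median of -0.17. nvd and phm, enzymes of ecdysone synthesis, differed by -0.98 and -0.90, and phm was at -1.66 in dE2F1/dDP + miR-11 discs, against -0.76 in miR-11 discs, over the control in the authors' deposited table. Neuroendocrine peptide genes centred on -0.01, with Akh, the adipokinetic hormone of the ring gland's corpora cardiaca, at -1.72. Tracheal and cuticle genes also centred on -0.01 (10 of 23 positive), with the cuticle genes Cpr78E and Cpr100A at -1.48 and 1.48, and germline and piRNA genes had a median of 0.22 (16 of 20 positive). Ecdysone response genes were positive in 15 of 22, with a median of 0.24. Heat shock and stress genes centred on -0.02 although TotA, a secreted stress protein, was at -4.24. TotA stood at -0.64 in dE2F1/dDP + miR-11 discs and 3.6 in miR-11 discs over the control in the authors' deposited table.

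Muscle and glial genes ran the other way. Muscle genes were positive in 19 of 24 rows with a median of 0.52, and 4 of the 24 were past log2 1 higher, against 0.723% of all genes. Prm, Unc-89, Mhc and sls, which encode thick filament and giant sarcomere proteins, differed by 1.36, 1.28, 1.22 and 1.06. Mhc was at 1.33 in dE2F1/dDP + miR-11 discs, 0.11 in miR-11 discs and 0.19 in dE2F1/dDP discs over the control in the authors' deposited table, and the list's median in dE2F1/dDP over control discs was 0.09. Glial genes were positive in all 13 rows with a median of 0.34. The transporter gene Mdr65 and the GPCR gene moody, both of the blood-brain barrier, differed by 1.22 and 0.95. Mdr65 was at 0.06 in dE2F1/dDP + miR-11 discs and -1.15 in miR-11 discs over the control in the authors' deposited table.

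Levels of these tissues' markers on each array cannot be given, because the deposited table holds fold changes only and the probe sets are unnamed. For the same reason the labelled tissue could not be checked against eye markers in absolute terms. How far unequal amounts of salivary gland, fat body, ring gland, muscle or glia in the dissected samples bear on these differences was not tested.

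**Figure D5:**
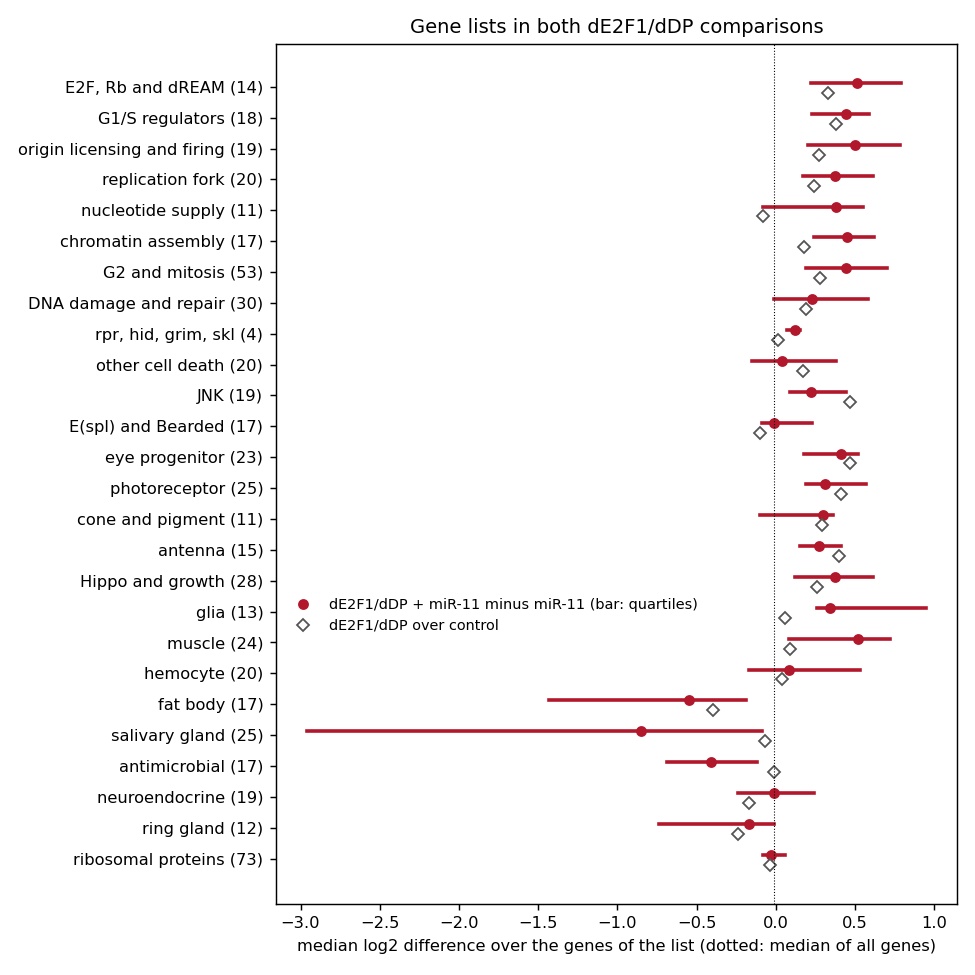
Median log2 difference of each gene list between dE2F1/dDP + miR-11 and miR-11 discs (filled points, with bars from the lower to the upper quartile) and median log2 fold change in dE2F1/dDP over control discs (open diamonds), with the number of rows in parentheses and the median of all genes as a dotted line. Cell cycle lists lie between 0.37 and 0.51 on the first measure, salivary gland genes at -0.85 and fat body genes at -0.55.

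Among single genes, the 10 largest negative differences were small secreted or uncharacterised genes. CG12310 was the lowest at -4.47, and CG14265, CG11300, CG14957, CG18649, CG13460 and nol lay between -4.27 and -3.61 with TotA, Pig1 and Sgs8. All 10 stood above the control in miR-11 discs. CG14957 was at 0.13 in dE2F1/dDP + miR-11 discs, 4.05 in miR-11 discs and 0.08 in dE2F1/dDP discs over the control in the authors' deposited table. CG18649 was below the control in both dE2F1/dDP genotypes, with -1.92 in dE2F1/dDP + miR-11 discs, 1.85 in miR-11 discs and -1.54 in dE2F1/dDP discs in the authors' deposited table. One run of 3 neighbouring genes past log2 1 lower was found along the genome, CG14265, ng3 and ng1 on chromosome X, where ng genes encode glue-like proteins.

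After Dp, the largest positive differences were CG9297 at 1.94, Rala at 1.78, Acf1 at 1.70, GlyP at 1.65, CG14545 at 1.54 and CG13705 at 1.5. Rala, a Ras-like GTPase, was at 0.15 in dE2F1/dDP + miR-11 discs, -1.63 in miR-11 discs and -1.20 in dE2F1/dDP discs over the control in the authors' deposited table, so dE2F1/dDP went with opposite signs with and without miR-11. GlyP, glycogen phosphorylase, was at 1.34 in dE2F1/dDP + miR-11 discs, -0.31 in miR-11 discs and 0.32 in dE2F1/dDP discs in the authors' deposited table. Glycolysis and glycogen genes were positive in 10 of 14, with a median of 0.25 against -0.17 in dE2F1/dDP over control discs, and the aldolase gene Ald and the lactate dehydrogenase gene ImpL3 differed by 1.05 and 0.98. ImpL1, Cpr100A (named above), CG7203 and the calcium pump gene Ca-P60A lay between 1.45 and 1.48.

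Where the miR-11 discs lay relative to the control was counted next. Of the 96 genes past log2 1 higher, 95 were above the control in dE2F1/dDP + miR-11 discs, 23 of them past log2 1, and 86 were below it in miR-11 discs, 3 of them past log2 1. Of the 154 genes past log2 1 lower, 139 were below the control in dE2F1/dDP + miR-11 discs, 43 of them past log2 1, and 62 were within 0.5 of it, while 146 were above the control in miR-11 discs, 73 of them past log2 1. In dE2F1/dDP over control discs, 81 of the 96 (84.4%) and 125 of the 154 (81.2%) had the same sign. 6 and 36 of these were past log2 1 there. The share of all genes with the same sign was not counted. Both comparisons were correlated over all genes (Pearson r = 0.59), so these shares are no separate evidence of a response. Over probe sets r was 0.57, and 0.17 without the third miR-11 array. The difference and the fold change of miR-11 discs share the miR-11 arrays, so the first counts describe where a difference lies and support nothing further.

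The genes the authors called in dE2F1/dDP discs offer a list chosen on other arrays. At a pfp (estimated proportion of false positives) under 0.05, the authors' deposited table calls 18 genes higher (0.136%) and 28 lower (0.211%) in dE2F1/dDP over control discs. Of the 18 higher genes, 12 had a positive difference with miR-11 and 4 were past log2 1, namely Dp, w, CG14545 and CG41284, with a median of 0.36 over the 18. CG41284 differed by 1.06 and pr-set7, the histone H4 methyltransferase gene, by 0.91. Of the 28 lower genes, 25 had a negative difference, 14 were past log2 1 lower and the median was -0.91. Over all genes 47.1% were positive, 0.723% were past log2 1 higher and 1.16% past log2 1 lower. Both comparisons were correlated over all genes (Pearson r = 0.59), so these counts too are no separate evidence of a response. Genes of these calls that are named here fall outside the rule for named genes and were chosen after their values were seen.

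Several of the 28 kept most of their size. CG13840 differed by -3.05, against -2.78 in dE2F1/dDP over control discs in the authors' deposited table, and CG9021 by -2.04, against -2.92 in the authors' deposited table. CG14191, CG15717, CG16704 and CG4250 differed by -1.72, -1.33, -1.27 and -1.22. Mec2 was at -2.09, and Rh5, a rhodopsin gene, at -1.04. For CG13840 the authors' deposited table gave -2.88 in dE2F1/dDP + miR-11 discs and 0.16 in miR-11 discs over the control, so only genotypes with dE2F1/dDP were low.

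Others had almost no difference, and in them miR-11 discs stood at the same fold change. Gyc-89Da differed by 0.05 and CG2177 by -0.02. In the authors' deposited table Gyc-89Da was at -3.58 in dE2F1/dDP + miR-11 discs, -3.63 in miR-11 discs and -3.65 in dE2F1/dDP discs over the control, so the control stood apart from all 3 transgenic genotypes. Cyp4g1, a cytochrome P450 of oenocytes, and Obp44a differed by -0.08 and -0.05 with both genotypes low. Of the 28 lower genes, the authors' deposited table also calls 25 lower in dE2F1/dDP + miR-11 discs and 8 in miR-11 discs, over the same control arrays. Among all 13281 genes it calls 82 lower in dE2F1/dDP + miR-11 discs (0.617%) and 19 in miR-11 discs (0.143%).

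A few genes called higher with dE2F1/dDP alone were not higher here. The cytochrome P450 gene Cyp6a17 was at 4.09 in dE2F1/dDP discs in the authors' deposited table and differed by -0.07 between dE2F1/dDP + miR-11 and miR-11 discs. sut2, a sugar transporter gene, was at 1.89 in dE2F1/dDP discs in the authors' deposited table and differed by 0.02. Sgs4, Sgs3, Eig71Ee and CG17145 had differences of -3.26, -2.96, -2.49 and -2.26 although the authors' deposited table lists all of them as called higher in dE2F1/dDP discs. For named genes the contrast between both responses has no test, and the probe set test of it is given in the closing section.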

How the data were processed

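Log2 expression values per probe set for 12 arrays were used as deposited. The submitters' processing notes name the R package affy without a version, and how background, normalization and summary were done is not stated in the sources used here. After 183 control probe sets were left out, limma 3.58.1 (R 4.3.3) was run on 18769 by lmFit and two-sided eBayes. One fit held all 12 arrays and had genotype alone as its term, and an adjusted p (Benjamini-Hochberg) under 0.05 made a call. The authors' deposited gene table holds average log2 fold changes over the control, rank product p-values (not used) and a pfp score, the estimated proportion of false positives, per the file headers, and the settings behind it are not stated in the sources used here. Gene differences are the fold change of dE2F1/dDP + miR-11 minus that of miR-11 discs. Since no probe set has a gene name, the test planned for genes was not run.

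The members, the 33 gene lists and the tests were chosen with earlier results of these data known. Genes were named by a rule: a fixed set of E2F, retinoblastoma, S phase and cell death genes, the 10 largest differences each way, also among genes the authors called, and up to 4 members of each list with the largest absolute difference. Probe sets were named by the smallest p-values, at most 2 in each direction per comparison. Of the 13281 genes, 12786 (96.3%) matched a RefSeq table of the Release 6 assembly, used for current names, gene spans and gene order. Some lists share a gene, and genes with several rows are counted by row.

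Replicate numbers are shared by the genotypes in the labels. Of 18 same-number pairs of arrays, 6 had deviations from the group mean that correlated above 0.1, with 0.43, -0.16 and -0.17 between dE2F1/dDP + miR-11 and miR-11 arrays, so the numbers were not taken to pair the samples. The test was checked on simulated data. Precision is limited by the number of arrays. The labels do not say whether the biological replicates came from separate crosses, so p-values measure the spread between these samples.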

Additional observations from a re-analysis of the deposited data

Results flagged for a closer look

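The response to dE2F1/dDP differed with and without miR-11 in 9 probe sets by the test of the difference itself (limma interaction, adjusted p under 0.05, 0.048% of 18769), 6 higher and 3 lower, and 312 probe sets had an unadjusted p under 0.05. A positive value means that the change from adding dE2F1/dDP was more positive in miR-11 discs. Those named are given here as values. For 1629242_x_at the difference was 4.23 ± 0.41 (SE, limma adjusted p = 0.00334), for 1638428_at 3.48 ± 0.38 (limma adjusted p = 0.00817) and for 1633386_s_at -2.33 ± 0.22 (limma adjusted p = 0.00334). In these 3 the miR-11 arrays stood apart from all others.

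In the other named ones dE2F1/dDP + miR-11 and miR-11 discs were alike and a genotype without miR-11 stood apart. 1626088_at was at 4.28, 4.26 and 4.36 in dE2F1/dDP + miR-11 discs, 4.38, 4.19 and 4.4 in miR-11 discs and 4.24, 4.32 and 4.5 in dE2F1/dDP discs, against 7.65, 7.68 and 7.74 in control discs, so that the difference of responses was 3.32 (limma adjusted p = 5.33e-06). 1624543_s_at and 1628585_at had the same shape with differences of 4.29 and 3.7 (limma adjusted p = 0.00112 and 0.00185). In 1628052_at only the dE2F1/dDP arrays were high, at 7.59, 7.99 and 8.01, against 3.63, 3.72 and 3.7 in dE2F1/dDP + miR-11 discs, and the difference was -4.16 (limma adjusted p = 0.000154).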

How the results depend on the processing

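The 10 probe sets called between dE2F1/dDP + miR-11 and miR-11 discs became 3 after quantile normalization, 3 on the 6 arrays alone, 7 among probe sets at or above the median level and 62 with the first component of within-genotype deviations as a covariate. Leaving out 1 array gave 3 to 48 calls, with 48 without the first miR-11 array and 8 without the third. The 12 calls between dE2F1/dDP and control discs became 4 on their 6 arrays and 63 with the covariate, and 5 to 19 with 1 array left out. The 9 calls of the interaction became 5 above the median level and 37 with the covariate, and 7 to 16 with 1 array left out. With the replicate number as a block the counts were 3, 7 and 9, although the numbers were not found to pair the arrays. A threshold of 1.5-fold in place of log2 1 gave 1410 genes in place of 250, 951 of them higher and 459 lower, against 96 and 154. Of 313 alternatives for 18 results of the named probe sets, 277 kept the call, 36 lost it and 0 reversed, and the losses were all in 1638279_at and 1624393_at. The cause of these changes was not tested. The span adjustment, the fits by size without a miR-11 array and the settings of the correlation were chosen after seeing the data. Array weights stopped before convergence and were not used. Gene list medians could not be recomputed from arrays, since the files name no probe set.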
